A study of Mus musculus with 6 samples.

Results

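The angiopoietin and Tie receptor system was described across 6 RNA-seq libraries of lung endothelial cells, through the genes of 3 ligands (Angpt1, Angpt2 and Angpt4), 2 receptors (Tek, also called Tie2, and Tie1) and the receptor phosphatase Ptprb, also called VE-PTP. The genes were chosen by name, and all 6 were found among the 23793 rows of the deposited table, each in 1 row. The libraries came from mice of mixed strain background at postnatal day 7, with 3 libraries of mutant lungs, titled Vegfa;Shh Mutant A, B and C, and 3 of control lungs, titled Vegfa;Shh Control A, B and C. Endothelial cells form the inner lining of vessels, and they were purified by fluorescence-activated sorting. The series title places the Vegfa of interest in the epithelium, Shh is a gene of the lung epithelium, and the alleles, whether controls carried any of them and any pooling of animals are not stated in the labels. Values of single libraries are always given in the order A, B, C. The labels do not say that each library came from its own animal, so p-values measure the spread between these libraries, which may be technical.

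Angiopoietins are secreted proteins that bind the receptor tyrosine kinase Tek on endothelial cells. Angpt1 comes mainly from mesenchymal cells and pericytes and activates Tek, which steadies vessels and their barrier, while Angpt2 is made by endothelial cells and can block or weakly activate the same receptor. Tie1 binds no angiopoietin with high affinity and acts beside Tek, and Ptprb removes phosphate groups from Tek and from junction proteins. Active Tek signals through Akt, which keeps the transcription factor Foxo1 out of the nucleus, and Angpt2 is among the genes that Foxo1 switches on.

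Levels were given in FPKM, fragments per length of transcript and scaled to library depth, so levels of different genes can be set side by side. The number of fragments is unknown, but the spacing of the lowest values put the relative depth of the libraries between 0.897 and 1.49, with control A as 1. Defining endothelial genes were high in every library: Cdh5, the cadherin of endothelial junctions, lay between 1050 and 1310 FPKM, and the adhesion molecule Pecam1 between 728 and 928 FPKM. Transcripts of other cells were present at lower levels, and they differed between libraries. The pan-leukocyte gene Ptprc lay at 0.0589 to 1.18 FPKM and Lyz2, a lysozyme of myeloid cells, at 2.995 to 28.3 FPKM. The epithelial gene Epcam lay at 0.142 to 0.596 FPKM. Secreted or abundant epithelial products were higher, with Sftpc of alveolar type 2 cells at 12.3 to 145 FPKM. Scgb1a1 of club cells lay at 5.56 to 50.8 FPKM and Ager of alveolar type 1 cells at 9.26 to 15.4 FPKM. Hopx, here listed with epithelial genes, was at 17.0, 21.6 and 5.87 FPKM in mutant libraries, against 59.6, 60.8 and 57.9 FPKM in control libraries. Ager averaged 11.5 FPKM in mutant and 12.5 FPKM in control libraries, and which cells Hopx came from was not tested. The collagen gene Col1a1 of mesenchymal cells lay at 65.5 to 335 FPKM. Vegfa itself stood at 80.5, 99.2 and 65.1 FPKM in mutant libraries, against 73.5, 89.1 and 80.1 FPKM in control libraries. Which cells these reads came from was not tested, and a level in sorted endothelial cells does not show the level of Vegfa in the epithelium. Libraries were compared with limma on the log2(FPKM + 1) scale, and p-values were adjusted by the Benjamini-Hochberg method over all 11693 rows that averaged 1 FPKM or more. In bulk libraries, fewer cells of a type and less RNA per cell cannot be told apart.

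The 2 receptors and the phosphatase were abundant, the ligands were not, and none of the genes tested passed the threshold between mutant and control lungs. Of the 6 genes, 5 reached a mean of 1 FPKM and were tested, and limma called 0 of these 5 at an adjusted p under 0.05, against 0.137% of all rows tested (16 rows, all lower in the mutant). At an unadjusted p under 0.05, 0 of the 5 passed, against 8.1% of all rows. In 0 of the 5 did the mutant libraries lie wholly above or below the controls, against 13.7% of all rows.

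**Figure D1:**
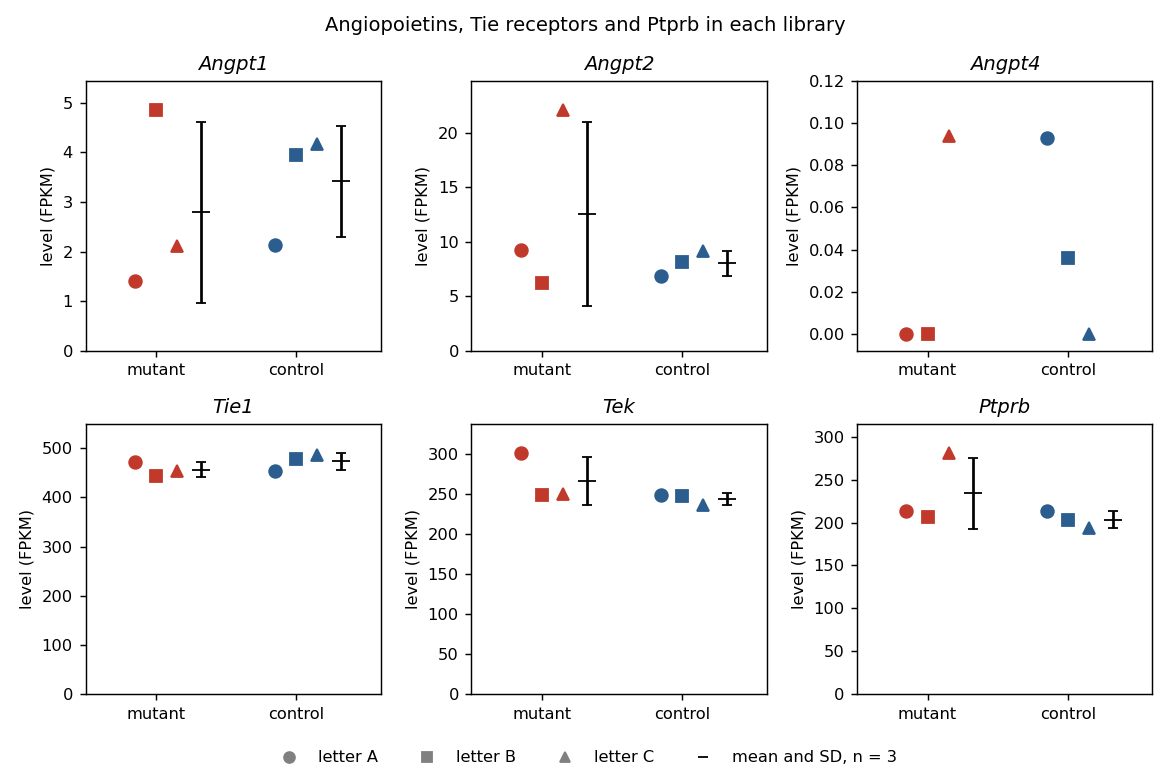
Levels in FPKM of the 6 genes, with a panel and a linear axis for each. Points are single libraries, with symbols for the letters A, B and C, and the bars are the mean and SD of 3 libraries (not drawn for Angpt4, listed at 0 in 3 libraries). The mutant and control libraries overlap in each panel, and mutant C stands apart for Angpt2 at 22.1 FPKM and for Ptprb at 281 FPKM.

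Tie1 was the most abundant of the 6 genes in every library (chromosome 4, 118471191 to 118490061, minus strand, mouse build GRCm38). It stood at 472, 442 and 454 FPKM in mutant libraries, and at 454, 478 and 487 FPKM in control libraries. The means were 456 ± 14.9 FPKM in mutant and 473 ± 16.8 FPKM in control libraries (SD, n = 3 each). The highest library was thus only 1.10 times the lowest, and the groups overlapped. The log2 fold change was -0.05 ± 0.11 (SE, n = 3 each), with a limma adjusted p of 0.929. The 95% confidence interval ran from a 0.80-fold to a 1.16-fold level in the mutant. Tie1 was among the steadiest transcripts in these libraries: only 1.14% of the rows tested had a smaller SD of log2(FPKM + 1) over the 6 libraries, as did 1% of the 500 rows nearest to it in level.

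Tek, the receptor that binds the angiopoietins, lies on the same chromosome (94739289 to 94874976, plus strand). Its levels were 301, 248 and 249.4 FPKM in mutant libraries, against 248.8, 247 and 236 FPKM in control libraries. The means were 266 ± 30.1 FPKM in mutant and 244 ± 7.21 FPKM in control libraries (SD, n = 3 each). Mutant A was the highest library, and the other two mutants stood among or just above the controls. The log2 fold change of 0.12 ± 0.12 (SE, n = 3 each) had a limma adjusted p of 0.841 and an interval from 0.89-fold to 1.32-fold. Without mutant A it was 0.03. Of all rows tested, 22.8% varied less than Tek over the 6 libraries.

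The letters upstream of the starts of Tie1 and Tek are shown because both genes were abundant in every library, and those of Angpt4 because that ligand was at or near 0 in all of them. Each sequence holds the 250 bases before the gene's start in RefSeq (GRCm38.p6), read 5′ to 3′ on the gene's own strand, and 3 of the 6 genes had such an entry. Capitals mark GGAA on either strand, the core that Ets factors bind. They cover chr4:118489850-118490099 on the minus strand for Tie1, chr4:94739039-94739288 on the plus strand for Tek and chr2:151910957-151911206 on the plus strand for Angpt4.
Tie1: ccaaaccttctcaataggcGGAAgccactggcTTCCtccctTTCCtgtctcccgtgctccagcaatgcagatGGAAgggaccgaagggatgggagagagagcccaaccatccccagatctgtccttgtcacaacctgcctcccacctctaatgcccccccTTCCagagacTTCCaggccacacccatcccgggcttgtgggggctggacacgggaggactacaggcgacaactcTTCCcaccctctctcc
Tek: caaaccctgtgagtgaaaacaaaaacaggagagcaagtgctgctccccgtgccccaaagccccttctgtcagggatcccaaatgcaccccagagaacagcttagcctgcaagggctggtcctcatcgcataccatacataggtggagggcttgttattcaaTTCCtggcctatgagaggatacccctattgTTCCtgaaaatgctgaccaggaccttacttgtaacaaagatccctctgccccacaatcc
Angpt4: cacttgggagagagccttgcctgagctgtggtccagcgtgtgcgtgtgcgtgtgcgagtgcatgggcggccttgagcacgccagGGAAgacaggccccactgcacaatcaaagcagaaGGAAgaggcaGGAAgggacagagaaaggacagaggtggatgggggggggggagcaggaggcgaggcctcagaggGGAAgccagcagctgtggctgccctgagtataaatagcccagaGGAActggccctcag
GGAA occurred 7 times before Tie1, 2 times before Tek and 5 times before Angpt4. Of 32851 RefSeq promoter windows of this length, 93.4% held GGAA at least once, with a median of 3 matches, while 3.8% held at least as many as Tie1, 76.8% at least as many as Tek and 18% at least as many as Angpt4. The letters TATAA, searched on both strands, were found before Angpt4 only among the 3, and in 22.8% of all windows. GATAA, a form of the motif of Gata factors, was found in 22.6% of all windows and in none of these 3. The start of Tie1 in GENCODE M21 lies inside its window. Such matches describe letters and do not show that a factor binds there. Of the Ets factors that could read GGAA, Ets1 averaged 169 ± 11.3 FPKM in mutant and 175 ± 19.7 FPKM in control libraries (SD, n = 3 each), and Erg 78.9 ± 23.5 FPKM in mutant and 57.8 ± 4.57 FPKM in control libraries.

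Ptprb, the phosphatase that acts on Tek (chromosome 10, 116275523 to 116389535, plus strand), was close to Tek in level. It stood at 214, 207 and 281 FPKM in mutant libraries, against 213, 203 and 194 FPKM in control libraries. The means were 234 ± 40.9 FPKM in mutant and 203 ± 9.82 FPKM in control libraries (SD, n = 3 each). Mutant C was the highest library, and mutants A and B stood among or just above the controls. The log2 fold change was 0.19 ± 0.14 (SE, n = 3 each), with a limma adjusted p of 0.787 and an interval from 0.90-fold to 1.45-fold. Without mutant C it was 0.05. The span of Ptprb also holds the small RNA gene Gm26495 and the unclassified gene Gm47625, neither of which overlaps its exons in GENCODE M21.

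Angpt2, the ligand made by endothelial cells themselves (chromosome 8, 18690263 to 18741562, minus strand), was the more abundant ligand in every library. Its levels were 9.19, 6.22 and 22.1 FPKM in mutant libraries, against 6.85, 8.12 and 9.13 FPKM in control libraries. The means were 12.5 ± 8.43 FPKM in mutant and 8.03 ± 1.14 FPKM in control libraries (SD, n = 3 each). Mutant C stood 2.40 times above the next library, while mutant B was the lowest of all 6. The log2 fold change of 0.41 ± 0.40 (SE, n = 3 each) had a limma adjusted p of 0.837 and an interval from 0.69-fold to 2.56-fold. Without mutant C its sign turned, to -0.067. The gene lies inside Mcph1, which runs on the other strand, and in GENCODE M21 none of its exons overlaps an exon of that gene. Mcph1 stood at 2.42, 3.21 and 2.88 FPKM in mutant libraries, against 1.68, 1.80 and 2.15 FPKM in control libraries. For Mcph1 each mutant was above each control, as in 7.12% of the rows tested, while Angpt2 overlapped between the groups.

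Angpt1, the activating ligand (chromosome 15, 42424723 to 42676977, minus strand), was low. It was listed at 1.41, 4.85 and 2.10 FPKM in mutant libraries, against 2.13, 3.95 and 4.17 FPKM in control libraries. The means were 2.79 ± 1.82 FPKM in mutant and 3.42 ± 1.123 FPKM in control libraries (SD, n = 3 each). Mutant B was the highest library and mutant A the lowest, so the spread within the mutants was wider than the difference between the groups. The log2 fold change was -0.29 ± 0.36 (SE, n = 3 each), with a limma adjusted p of 0.879 and an interval from 0.45-fold to 1.48-fold. Exons of Angpt1 overlap those of the antisense gene Gm17473 in GENCODE M21, and no source used here says whether the authors counted by strand, so reads of the 2 genes may not have been told apart.

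Angpt4, a further ligand of Tek (chromosome 2, 151911210 to 151945337, plus strand), was hardly detected. It was listed at 0, 0 and 0.0938 FPKM in mutant libraries, and at 0.0928, 0.0362 and 0 FPKM in control libraries. Multiplied by the relative depth of their libraries, the 3 values above 0 stood as 3.0 in mutant C to 1.99 in control A and 1 in control B, that is close to whole multiples of the smallest. Its mean was under 1 FPKM, so it was not tested, and at this depth no difference was detectable.

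**Figure D2:**
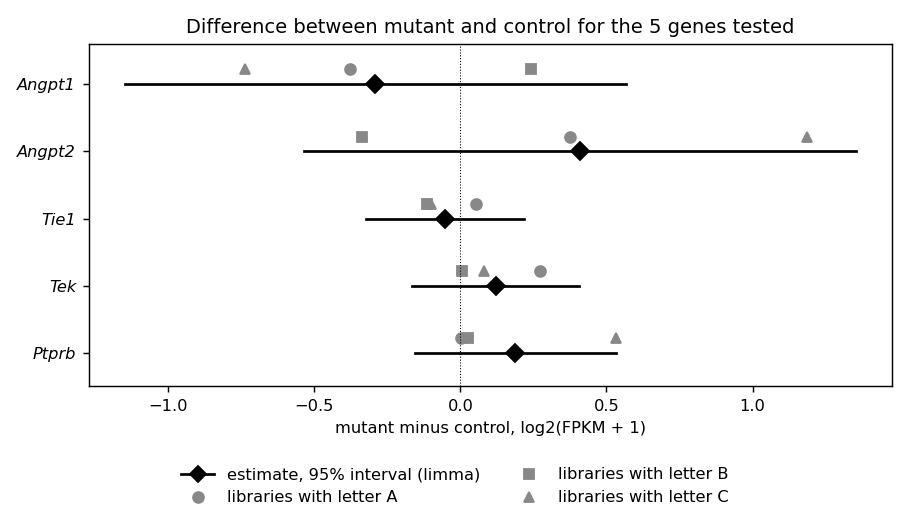
Mutant minus control on the log2(FPKM + 1) scale for the 5 genes tested. Diamonds and lines are the limma estimate and its 95% interval, and grey symbols are the differences between libraries that share a letter. Each interval includes 0, and those of Tie1, Tek and Ptprb are narrower than those of Angpt1 and Angpt2.

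The labels put pair A under one prefix of the sample description and pairs B and C under another, and what the prefix marks is not stated. In pairs B and C alone, the log2 fold changes were -0.11 for Tie1, 0.04 for Tek, 0.28 for Ptprb, 0.42 for Angpt2 and -0.25 for Angpt1, each of the same sign as over all libraries and none past the limma threshold. Pair A alone has 1 library in each group and differed by 0.05 for Tie1, 0.27 for Tek, 0.00 for Ptprb, 0.38 for Angpt2 and -0.38 for Angpt1, with no test. Tie1 thus differed in sign between pair A and the other pairs. The ligands changed sign in pair B: Angpt2 differed by 0.38, -0.34 and 1.19 in pairs A, B and C, and Angpt1 by -0.38, 0.24 and -0.74.

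The order of levels was Tie1, Tek, Ptprb, Angpt2, Angpt1 and Angpt4 in both groups by mean. Tek and Ptprb, which are neighbours in that order, were not separated in the mutants: the ratio of Ptprb to Tek was 0.711, 0.833 and 1.13 in mutant libraries, against 0.858, 0.821 and 0.823 in control libraries. Angpt2 exceeded Angpt1 in every library, by 6.53, 1.28 and 10.5 times in mutant libraries and by 3.22, 2.05 and 2.19 times in control libraries. The ratio was above all controls in mutants A and C and below them all in mutant B.

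Ratios within a library do not depend on its scaling, and 5 of them were compared with a two-sided exact permutation test over libraries, whose smallest possible p is 0.1. The ratio of Tie1 to Tek was 1.57, 1.78 and 1.82 in mutant libraries, against 1.83, 1.94 and 2.07 in control libraries. All 3 mutants were below all 3 controls, though mutant C and control A all but touched. The ratio averaged 1.72 ± 0.136 in mutant and 1.94 ± 0.12 in control libraries (SD, n = 3 each), 0.887 times the control level by the mean of the logs, with an exact permutation p of 0.1 and 0.5 after Benjamini-Hochberg adjustment over the 5 ratios. As the groups did not overlap, the ratio was bound to be lower in the mutant in each letter pair, which adds no support.

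The other 4 ratios overlapped between the groups. The ratio of Angpt2 to Tek was 0.0305, 0.025 and 0.0885 in mutant libraries and 0.0275, 0.0329 and 0.0388 in control libraries (exact permutation p = 0.9). That of Angpt1 to Tek was 0.00467, 0.0196 and 0.00844 in mutant libraries and 0.00854, 0.016 and 0.0177 in control libraries (exact permutation p = 0.6). Both ligands thus stood far below the receptor in these sorted cells, whichever group they came from. The exact permutation p was 0.4 for Angpt2 to Angpt1 and 0.8 for Ptprb to Tek, and the adjusted value was 0.9 for each of these 4 ratios.

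**Figure D3:**
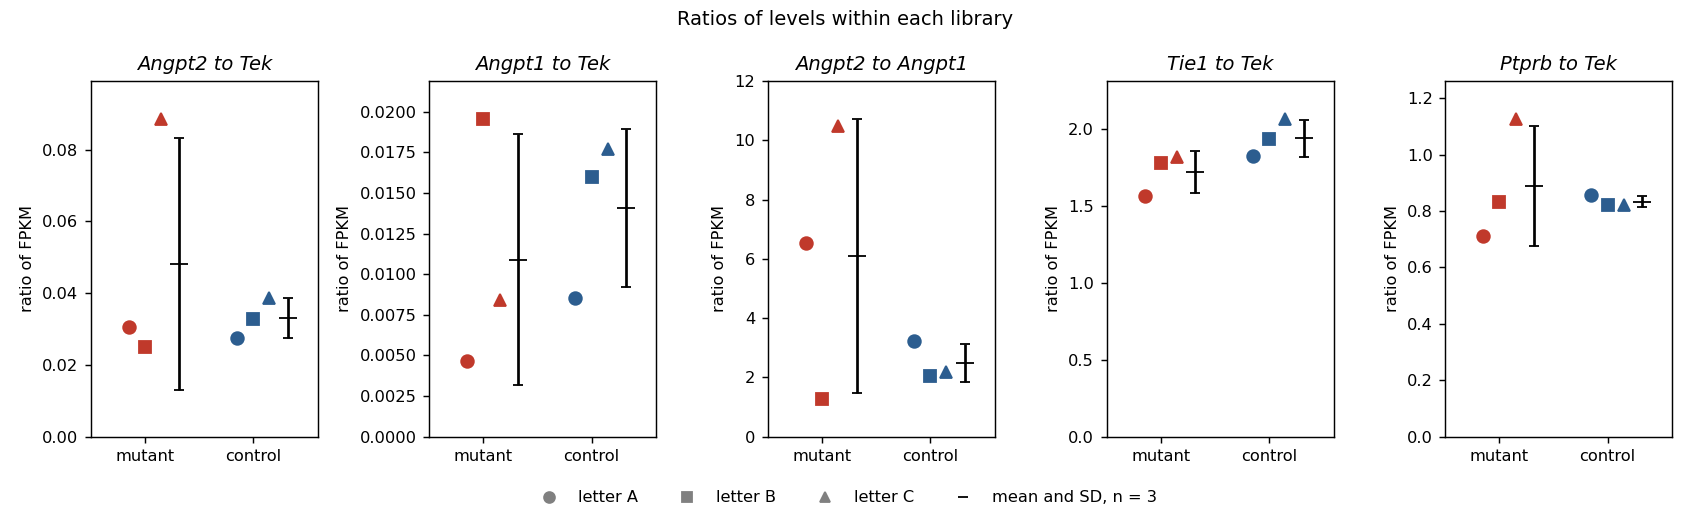
Ratios of FPKM within each library for 5 pairs of genes, each on its own linear axis from 0. Points are libraries, and bars are the mean and SD of 3. The mutants lie below the controls for Tie1 to Tek only, at 1.57 to 1.82 against 1.83 to 2.07.

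Angpt1 varied together with the transcripts of mesenchymal cells and pericytes, which are known to make it. Its 3 highest libraries were mutant B, control C and control B. The same 3 libraries were the highest for 10 of 14 mesenchymal and pericyte markers (71.4%), against 12.8% of all rows tested. The summed level of the 14 markers was 419, 1595 and 758 FPKM in mutant libraries, against 539, 1576 and 1522 FPKM in control libraries, and none of the 14 was at 0 in any library. Limma called 0 of the 14. At an unadjusted p under 0.05 there were 3 (Rgs5, Pdgfrb and Postn, all lower), against 8.1% of all rows. A lower mean log2 level was found in 11, against 45.4% of all rows. The median log2 fold change was -0.57, and with 1 library left out it ran from -1.01 (without control A; -1.00 without mutant B) to -0.21 (without mutant A; -0.31 without control C). Pdgfrb, a receptor found on pericytes, averaged 9.95 ± 5.07 FPKM in mutant and 24.2 ± 10.6 FPKM in control libraries (SD, n = 3 each, limma adjusted p = 0.586). The 3 markers with a higher mean log2 level in the mutant were Fn1, Dcn and Tcf21, with log2 fold changes of 0.78, 0.29 and 0.19. With the mean log2(FPKM + 1) of these markers as a covariate, the log2 fold change of Angpt1 was 0.056 in place of -0.29. The covariate was 4.01, 5.57 and 4.62 in mutant libraries, against 4.41, 5.60 and 5.62 in control libraries. Each mutant was below the control of its letter, in pair B only just, while mutants B and C were above control A. The covariate thus ran partly with the group, and this fit cannot fully separate the share of these cells from the group. Of the 8 platelet genes, which mark another store of Angpt1, the 4 tested had lower means in the mutant and 0 passed in limma. At an unadjusted p under 0.05 there were 2 of these, against 8.1% of all rows. Their median log2 fold change was -0.74 (-0.97 without mutant B to -0.46 without mutant C). The sum of all 8 was 7.95, 15.2 and 5.39 FPKM in mutant libraries and 15.6, 22.9 and 14.3 FPKM in control libraries. In that sum Gp1bb stands for a row it shares with Sept5, at 3.48, 6.75 and 3.59 FPKM in mutant libraries and 4.75, 6.60 and 6.21 FPKM in control libraries. The 2 genes of that row cannot be told apart. The part of mesenchymal cells, pericytes or platelets in the level of Angpt1 was not tested.

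The high Angpt2 of mutant C came with high values of some genes of endothelial tip cells, the cells that lead a sprout. Esm1, a proteoglycan secreted by tip cells, stood at 17.6, 14.9 and 39.0 FPKM in mutant libraries, against 10.98, 9.71 and 14.6 FPKM in control libraries. Igfbp3, which binds insulin-like growth factors, stood at 9.29, 6.26 and 26.2 FPKM in mutant libraries, against 6.43, 4.07 and 6.40 FPKM in control libraries. For both genes mutant C was more than 2 times the next library, as for Angpt2. Of the 14 tip cell genes, 7 were highest in mutant C, against 28.1% of all rows tested, a library that thus held more of the highest values than any other. Dll4, the Notch ligand of tip cells, was not among the 7, at 105, 125 and 134 FPKM in mutant libraries and 131, 116 and 136 FPKM in control libraries. Unc5b and Nid2, also on the list, went the other way, with their lowest level of the 6 libraries in mutant C, at 36.5 and 22.2 FPKM. Over the list limma called 0 of 14. At an unadjusted p under 0.05 there were 3 (Esm1 and Adm higher, Plaur lower), against 8.1% of all rows. The median log2 fold change was 0.15, against 0.02 for all rows tested. Without mutant C the median of the list was -0.0027.

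**Figure D4:**
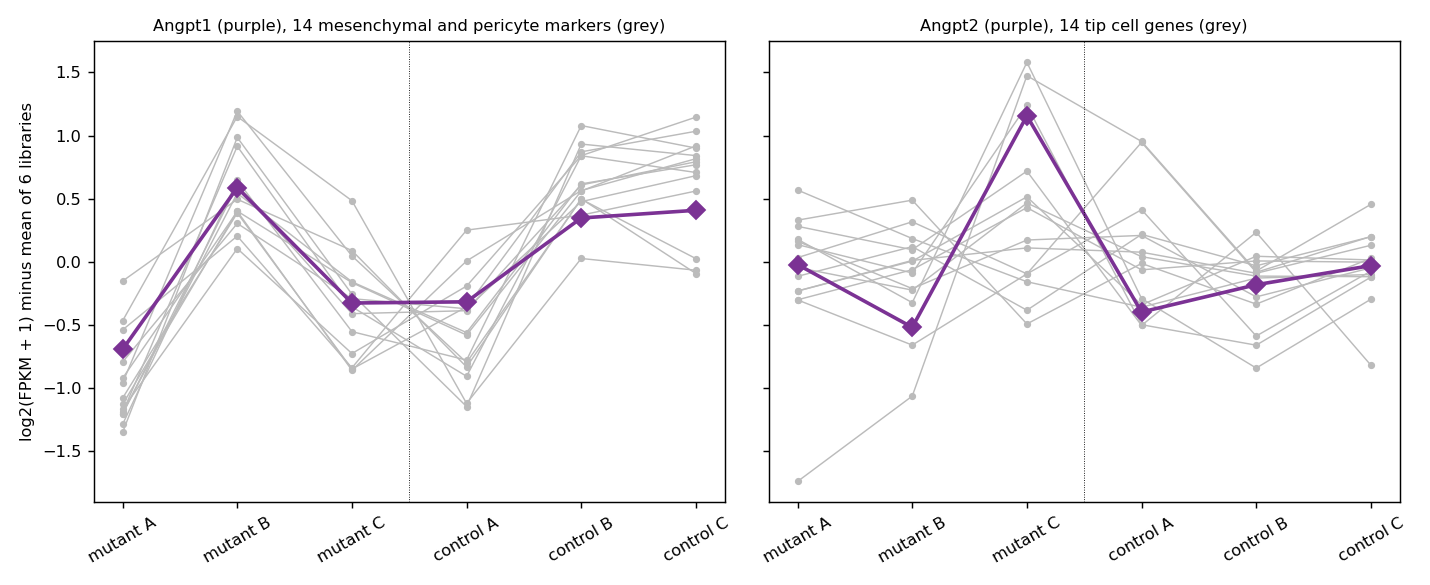
Level of each gene in each library, as log2(FPKM + 1) minus the gene's mean over the 6 libraries. The left panel sets Angpt1 beside 14 mesenchymal and pericyte markers, of which 10 have their highest values in mutant B, control B and control C, and the right panel sets Angpt2 beside 14 tip cell genes, of which 7 peak in mutant C.

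Other rows came close to the members in their course over the 6 libraries, as measured by the root mean square difference of log2(FPKM + 1) after centring each gene. The nearest to Angpt1 were S1pr3, a receptor of sphingosine 1-phosphate, the homeobox gene Meis3 and the small GTPase Rac3, at differences of 0.0757, 0.0806 and 0.0845. The nearest to Angpt2 were Sncaip, the zinc finger gene Zfp521 and Prr15, at 0.119, 0.132 and 0.158. Zfp521 stood at 11.1, 9.99 and 25.6 FPKM in mutant libraries and 9.19, 10.2 and 11.3 FPKM in control libraries, with the same lone high library as Angpt2. The nearest were Slc25a32, Lrpap1 and Mat2b for Tie1 (0.0151, 0.0234 and 0.0234), Terf1, Gatsl3 and Zfp280c for Tek (0.0195, 0.0280 and 0.0347) and Tomm7, Eef1g and Chchd2 for Ptprb (0.0397, 0.0432 and 0.0441). With 6 libraries and 11693 rows, such likeness describes these libraries only.

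Among genes that pass the signal on inside the cell, the adaptor Grb14 stood out. It belongs to the family of Grb7 and Grb10 and can bind the active Tek receptor. It was at 4.30, 3.22 and 2.53 FPKM in mutant libraries, against 9.87, 15.7 and 17.0 FPKM in control libraries. All mutants were below all controls, as in 6.57% of the rows tested. The means were 3.35 ± 0.890 FPKM in mutant and 14.2 ± 3.80 FPKM in control libraries (SD, n = 3 each), a log2 fold change of -1.79 ± 0.23 (SE) that did not pass, with a limma adjusted p of 0.0897 and a range of 0.0749 to 0.389 over the 17 alternatives. Of the other 14 adaptors and kinases tested, limma called 0 (0 at an unadjusted p under 0.05). Akt1 averaged 131 ± 22.2 FPKM in mutant and 119 ± 8.21 FPKM in control libraries, and the kinase Mapk3 averaged 241 ± 2.31 FPKM in mutant and 244 ± 3.52 FPKM in control libraries. Tnip2, an inhibitor of NF-kB signalling that binds Tek, was higher in each mutant than in any control, as in 7.12% of the rows tested, at means of 13.3 ± 0.0899 FPKM in mutant and 11.8 ± 1.24 FPKM in control libraries (limma adjusted p = 0.735). Nck1, another adaptor, averaged 39.5 ± 8.65 FPKM in mutant and 45.0 ± 5.01 FPKM in control libraries (limma adjusted p = 0.802). The median log2 fold change of the 15 genes was 0.01, and it ran from -0.017 (without mutant C) to 0.054 (without control C) with 1 library left out.

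The Foxo factors and genes known to follow Foxo1 gave a mixed picture. Limma called 0 of 15. At an unadjusted p under 0.05 there were 2 (Esm1 and Trib1, both higher), against 8.1% of all rows. Of the 15, 8 had a lower and 7 a higher mean log2 level. Foxo1 averaged 44.5 ± 9.83 FPKM in mutant and 37.3 ± 4.92 FPKM in control libraries (SD, n = 3 each; limma adjusted p = 0.787). Trib1, a pseudokinase, stood at 10.6, 12.8 and 19.8 FPKM in mutant libraries, against 7.11, 10.1 and 10.3 FPKM in control libraries (limma adjusted p = 0.617). Klf2, a transcription factor that responds to flow, averaged 286 ± 154 FPKM in mutant and 502 ± 169 FPKM in control libraries (limma adjusted p = 0.632). The median of the list was -0.07, and it ran from -0.094 (without control A) to 0.12 (without control C) with 1 library left out.

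Proteins that Ptprb acts on or binds at junctions showed no call (limma, 0 of 9, and 0 at an unadjusted p under 0.05). The nearest to the threshold were Kdr, the main VEGF receptor, Jup, which links cadherins to the cytoskeleton, and the GTPase Rap1b. Jup averaged 218 ± 39.3 FPKM in mutant and 253 ± 5.41 FPKM in control libraries (SD, n = 3 each, limma adjusted p = 0.754), with each mutant below each control, as in 6.57% of the rows tested. Rap1b averaged 170 ± 25.0 FPKM in mutant and 202 ± 33.7 FPKM in control libraries (limma adjusted p = 0.767). Kdr stood at 222, 218 and 290 FPKM in mutant libraries, against 277, 301 and 309 FPKM in control libraries, and overlapped through mutant C and control A (limma adjusted p = 0.670). The median of the list was -0.10, and it stood at -0.17 without mutant A and -0.15 without control B.

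Transcription factors known to bind at Tek, Tie1 or Angpt2 were also not called (limma, 0 of 15), while 3 passed an unadjusted p under 0.05, against 8.1% of all rows. Foxf1, a forkhead factor of lung endothelium and mesenchyme, stood at 390, 473 and 289 FPKM in mutant libraries, against 683, 551 and 607 FPKM in control libraries. Each mutant was below each control, as in 6.57% of the rows tested, with a log2 fold change of -0.70 ± 0.20 (SE) and a limma adjusted p of 0.482. Klf4 averaged 150 ± 47.9 FPKM in mutant and 254 ± 50.6 FPKM in control libraries (limma adjusted p = 0.546). Gata3 averaged 13.9 ± 4.43 FPKM in mutant and 7.58 ± 3.21 FPKM in control libraries (limma adjusted p = 0.600). Epas1, the hypoxia-inducible factor abundant in endothelium, averaged 825 ± 59.2 FPKM in mutant and 746 ± 19.6 FPKM in control libraries (limma adjusted p = 0.826). The median of the list was 0.13, but -0.0045 without mutant C, 0.20 without mutant B and 0.068 without control B.

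Proteins that bind angiopoietins or hold or shed the Tie receptors gave 0 calls among 10 (limma, 0 at an unadjusted p under 0.05), with a median of -0.07 (-0.11 without mutant C to -0.017 without mutant A). Itgb1, an integrin chain that can bind angiopoietins, averaged 482 ± 27.0 FPKM in mutant and 463 ± 65.2 FPKM in control libraries (SD, n = 3 each). Adam17, a protease that sheds surface receptors, averaged 26.5 ± 0.977 FPKM in mutant and 26.3 ± 0.788 FPKM in control libraries. Itgav had the lowest p of the list, at 10.8 ± 2.46 FPKM in mutant and 13.8 ± 1.94 FPKM in control libraries (limma adjusted p = 0.682). Svep1, a matrix protein that binds angiopoietins and is made by mesenchymal cells, was at 0.784, 5.06 and 2.14 FPKM in mutant libraries, against 1.39, 4.12 and 3.49 FPKM in control libraries, with the same 3 highest libraries as Angpt1.

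Angiopoietin-like proteins share the fold of the angiopoietins and do not bind Tek, and 3 of 6 were tested, with 0 called in limma (0 at an unadjusted p under 0.05) and a median of -0.23 (-0.57 without mutant B to -0.045 without mutant A). Angptl2 was at 9.66, 26.4 and 10.2 FPKM in mutant libraries, against 16.2, 38.7 and 41.2 FPKM in control libraries (limma adjusted p = 0.639). The order of its libraries resembled that of the mesenchymal markers, with control C, control B and mutant B highest. Angptl4 averaged 9.12 ± 4.47 FPKM in mutant and 10.2 ± 1.10 FPKM in control libraries, and Angptl6 2.499 ± 0.149 FPKM in mutant and 2.11 ± 0.259 FPKM in control libraries (SD, n = 3 each).

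Of the 6 tested genes listed as markers of lymphatic vessels, which need Angpt2, limma called 0 (0 at an unadjusted p under 0.05). Each had a higher mean log2 level in the mutant, against 54.6% of all rows, though the mean FPKM of Lyve1 was lower, at 377 ± 71.0 FPKM in mutant and 389 ± 181 FPKM in control libraries (SD, n = 3 each). The median log2 fold change of 0.17 turned to -0.088 without mutant A and was 0.41 without control A. Prox1, the factor that defines lymphatic endothelium, was at 3.87, 1.59 and 2.06 FPKM in mutant libraries, against 3.09, 1.87 and 1.20 FPKM in control libraries. Lyve1 and Flt4 stood far above Prox1, at 222 to 582 FPKM and 45.8 to 64.6 FPKM over all libraries. Which cells Lyve1 and Flt4 came from was not tested, so the list may not describe lymphatic vessels alone. Among 16 pan-endothelial markers limma called 0 (1 at an unadjusted p under 0.05, Cldn5, lower, against 8.1% of all rows), with a median of -0.06 (-0.077 without mutant C to 0.042 without mutant B). Their summed level, by which the pan-endothelial rescaling divides, was 7002, 6432 and 7103 FPKM in mutant libraries, against 8625, 7800 and 7778 FPKM in control libraries, without overlap. Cldn5, which is a large part of that sum, averaged 1069 ± 239 FPKM in mutant and 2190 ± 210 FPKM in control libraries. Each mutant was below each control for Cldn5, as in 6.57% of the rows tested. Of the 16 markers 9 had a lower and 7 a higher mean log2 level, so the lower sum does not describe the markers as a group. The leukocyte list had 3 of 8 genes tested and a median of -0.40, which ran from -1.35 (without mutant A) to 0.15 (without mutant C). The summed level of the 8 was 36.2, 9.40 and 5.46 FPKM in mutant libraries, against 21.2, 39.9 and 8.88 FPKM in control libraries. The epithelial list had 7 of 10 tested and a median of -0.10, which ran from -0.57 (without mutant A) to 0.05 (without control B), and its sum was 135, 86.4 and 42.2 FPKM in mutant libraries, against 168, 271 and 121 FPKM in control libraries. In neither list was a gene called in limma. At an unadjusted p under 0.05 there were 0 genes of the leukocyte list and 2 of the epithelial list (Hopx and Sftpc, both lower), against 8.1% of all rows. Over all lists around the system, 0 of 123 genes tested were called, against 0.137% of all rows tested.

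**Figure D5:**
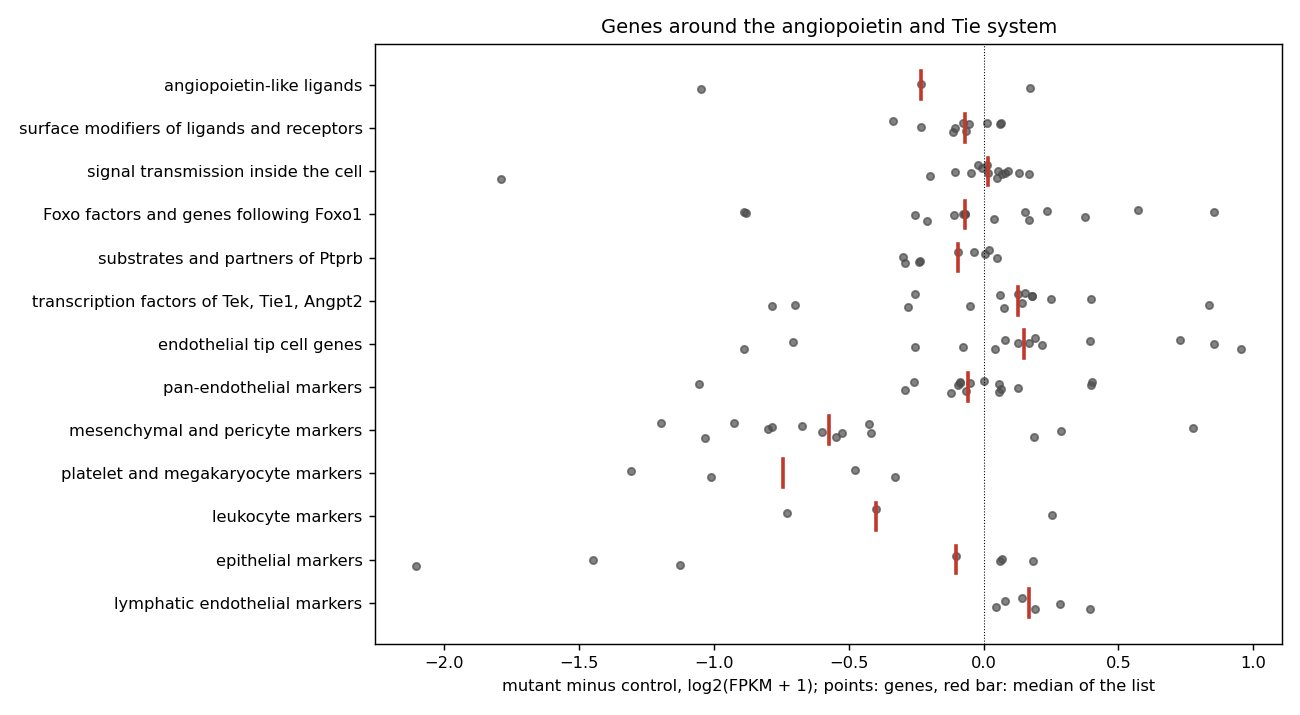
Mutant minus control on the log2(FPKM + 1) scale for the tested genes of 13 lists around the angiopoietin and Tie system. Points are genes and red bars are the medians of the lists. Grb14, at -1.79, lies far from the other genes of signal transmission, and 0 of the 123 genes passed the limma threshold, against 0.137% of all rows tested.

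The authors' deposited table gave log2 fold changes of -0.05 for Tie1 (p = 0.432), 0.12 for Tek (p = 0.268) and 0.19 for Ptprb (p = 0.391). For the ligands, the authors' deposited table gave 0.44 for Angpt2 (p = 0.457) and -0.43 for Angpt1 (p = 0.376), and a spreadsheet error for Angpt4. None of these 5 deposited p-values was under 0.05, and the table does not say whether they were adjusted.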

How the data were processed

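Per the labels' protocols, mRNA of sorted lung endothelial cells was sequenced in pairs of 76 nt reads and aligned to mm10. The submitters' processing notes name Cufflinks 2.2.1 and Cuffdiff besides the aligners Bowtie2 2.2.3 and TopHat2 2.0.14, without their order. The authors deposited FPKM per library and gene symbol, beside their own p-value and log2 fold change. Of 23793 rows, 5974 were 0 throughout. Rows were found by symbol, also within comma-joined symbols, taking the highest mean where a symbol recurred. FPKM holds no counts, so log2(FPKM + 1) was tested by a trended empirical Bayes fit (R 4.3.3, limma 3.58.1) over the 11693 rows of mean at least 1 FPKM, tested first on simulated data. Positions are from GENCODE M21 (GRCm38, the same build as mm10) and promoter sequences from RefSeq (GRCm38.p6).

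The members, 13 lists and tests were chosen with earlier results of these data known. Named were all members, called genes or up to 3 of lowest p per list, and the 3 rows nearest in pattern to each tested member; other named genes were chosen after their values were seen. Letters were checked for pairing: deviations from group means of same-letter libraries correlated at 0.36 (A), 0.27 (B, where control B is set against mutant B) and 0.19 (C), all over 0.1 and each higher than with other letters. The letters may thus pair the libraries, but 3 libraries per group cannot settle it. The prefix of the sample description also sets letter A apart from B and C. The values reported come from a fit without a block. Alternatives were pseudocounts, filters, scalings, a fit without trend, the block, a batch term from the description label's prefix, a mesenchymal covariate, pairs B and C alone and each library left out.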

Additional observations from a re-analysis of the deposited data

How the results depend on the processing

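None of Angpt1, Angpt2, Tie1, Tek and Ptprb passed the limma threshold under any alternative run, with adjusted p between 0.151 and 0.995. Angpt1 has no value at a filter of 5 FPKM, and Angpt4 was tested only without a filter (log2 fold change -0.02, limma adjusted p = 0.947). The sign turned for Tie1 with pan-endothelial rescaling (0.18, where the median of all rows moved from 0.02 to 0.23, so Tie1 stayed below it) and for Angpt1 with the mesenchymal covariate (0.056); the cause was not tested. With a library left out, log2 fold changes ranged from -0.067 to 0.77 for Angpt2 and from -0.66 to -0.02 for Angpt1, and the log2 ratios from -0.24 to 0.67 for Angpt2 to Tek and from -0.12 to 0.22 for Ptprb to Tek, negative only without mutant C. With the letter as a replicate block the adjusted p of the 5 genes lay between 0.595 and 0.886, the log2 ratio of Tie1 to Tek was -0.17 (exact sign flips, p = 0.25, the smallest possible), and no call among members or lists changed. Rows called lower numbered 6 with the block, 10 at a mean of at least 5 FPKM, 5 with pan-endothelial rescaling, 4 in pairs B and C, and 5 to 9 with a library left out, against 16; rows called higher numbered 1 in pairs B and C and 0 to 2 with a library left out, against 0. With 1 library left out, the median log2 fold change turned sign for the Foxo, signal transmission, transcription factor, tip cell, pan-endothelial, leukocyte, epithelial and lymphatic lists, and kept its sign for the other 5. Of the list genes, Hopx alone was called in any alternative, without mutant C. Libraries of 3 per group limit what could be detected, and the depth in fragments is unknown.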
